A study of Mus musculus with 12 samples.

Results

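The 10 genes described here encode the carriers that move bile acids, sterols and phospholipids into and out of the hepatocyte. They were taken by gene symbol from a list chosen with earlier results of these data known. The members were Slc10a1, Slco1a1, Slco1b2, Abcb11, Abcc2, Abcb4, Atp8b1, Abcg5, Abcg8 and Abcc3. Each had 1 probe set with a single gene symbol on the Affymetrix Mouse Gene 1.0 ST array, and all 10 were among the 13987 genes bright enough to test, of 19935 genes with such a probe set. Whole liver was profiled from ovariectomized female C57BL/6 mice, 3 months old, in 6 groups of 2 arrays: wild type, ERKO (no oestrogen receptor alpha, per the labels) and MOER (the receptor at the cell membrane only, per the labels), each given oil or PPT. PPT, which activates oestrogen receptor alpha, was injected at 100 µg daily for 3 days after 1 week of recovery from surgery, and control mice received 0.1 mL of oil. Every group, controls included, had been ovariectomized. Each array held the pooled RNA of 3 animals, so the spread between individual mice is not seen. The labels say that the study was run a second time without stating whether each array's mice were separate, so p-values measure only the spread between arrays, which may be technical. In whole liver, fewer cells of a type and less RNA per cell cannot be told apart.

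Bile acids cycle between liver and gut. Hepatocytes take them up from portal blood through the sodium-dependent carrier encoded by Slc10a1 and the sodium-independent organic anion carriers encoded by Slco1a1 and Slco1b2. At the canalicular membrane, Abcb11 encodes the bile salt export pump, Abcc2 the exporter of conjugated bilirubin and other organic anions, Abcb4 the floppase that delivers phosphatidylcholine to bile, and Atp8b1 a flippase that keeps the lipid asymmetry of that membrane. Abcg5 and Abcg8 encode the subunits of the heterodimer that secretes cholesterol and plant sterols. Abcc3 encodes a basolateral pump that returns organic anions to the blood. The bile acid receptor FXR is known to activate Abcb11 and the oxysterol receptor LXR to activate Abcg5 and Abcg8. Oestrogens are known to slow bile flow in rodents, with lower levels of several of these carriers.

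Promoter windows are shown for 4 members. Abcb11 and Slco1b2 moved in opposite directions in wild type, Slco1a1 had the widest range, and the Abcg5 window overlaps that of its partner. Any link between these sequences and the responses was not tested. RefSeq tables of GRCm38.p6 were used for windows of 300 bases, from 250 before to 50 after a start site, of 8 of the 10 genes. The Abcb11 window was chr2:69342567-69342866 on the minus strand, Slco1b2 chr6:141629268-141629567 on the plus strand, Slco1a1 chr6:141946913-141947212 on the minus strand and Abcg5 chr17:84682962-84683261 on the minus strand. Capitals mark the match to the IR-1 motif in Abcb11 and Slco1b2 and the match to the DR-1 motif in Slco1a1. In Abcg5, capitals mark the 209 bases shared with the Abcg8 window on the opposite strand.
Abcb11: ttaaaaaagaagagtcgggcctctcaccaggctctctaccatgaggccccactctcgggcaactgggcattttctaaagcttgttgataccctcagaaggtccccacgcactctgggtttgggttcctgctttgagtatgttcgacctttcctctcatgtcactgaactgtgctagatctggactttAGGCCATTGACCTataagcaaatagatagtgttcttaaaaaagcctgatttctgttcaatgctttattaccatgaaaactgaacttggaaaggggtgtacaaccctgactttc
Slco1b2: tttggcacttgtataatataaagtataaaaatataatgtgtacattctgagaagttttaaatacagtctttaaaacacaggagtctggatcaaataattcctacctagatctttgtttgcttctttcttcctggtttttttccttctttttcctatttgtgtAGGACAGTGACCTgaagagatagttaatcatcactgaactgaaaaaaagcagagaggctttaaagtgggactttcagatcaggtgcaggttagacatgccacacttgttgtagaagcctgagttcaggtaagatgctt
Slco1a1: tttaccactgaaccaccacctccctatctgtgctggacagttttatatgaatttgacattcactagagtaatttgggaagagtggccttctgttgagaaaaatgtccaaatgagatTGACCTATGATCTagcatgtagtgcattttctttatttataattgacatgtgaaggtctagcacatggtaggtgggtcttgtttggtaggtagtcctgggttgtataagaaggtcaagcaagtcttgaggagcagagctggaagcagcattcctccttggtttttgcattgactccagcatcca
Abcg5: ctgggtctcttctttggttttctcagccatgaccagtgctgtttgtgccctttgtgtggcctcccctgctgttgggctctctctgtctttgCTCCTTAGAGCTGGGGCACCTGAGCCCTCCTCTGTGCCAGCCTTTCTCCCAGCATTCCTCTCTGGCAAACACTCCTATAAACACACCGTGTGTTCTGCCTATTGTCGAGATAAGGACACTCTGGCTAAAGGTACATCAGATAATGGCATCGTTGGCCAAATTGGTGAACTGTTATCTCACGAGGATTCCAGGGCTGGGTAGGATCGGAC

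The IR-1 motif, AGGTCANTGACCT, is the form of inverted repeat that FXR is known to bind. With 1 letter allowed to differ, on both strands, it was found in 27 of 32851 promoter windows, 0.0822%. Abcb11 held such a match from 63 to 51 bases before its start site, and Slco1b2 held one from 88 to 76 bases before its own. The DR-1 motif, AGGTCANAGGTCA, was found with the same allowance in 0.554% of windows and in Slco1a1 from 134 to 122 bases before the start site, read on the strand opposite to the one printed. Abcg5 and Abcg8 are divergent neighbours on chromosome 17 with 110 bases between the start sites used here. Counting both strands, 3 copies of the GATA motif AGATAA (11.2% of all windows) lay in the bases the windows share. They are the same 3 sites in both windows. No window of the 8 genes held the oestrogen response element GGTCANNNTGACC with 1 letter allowed to differ, a motif found in 0.877% of windows. The DR-4 motif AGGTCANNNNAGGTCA (0.25% of windows) and the HNF1 motif GTTAATNATTAAC (0.207%) gave no match either with the same allowance. The STAT motif TTCNNNGAA, matched exactly, was found in Slc10a1 and Slco1b2 and in 8.3% of windows. These are letter matches in a window of this length and were not measured as binding sites.

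The array medians lay between 77.5 and 85.26, and Pearson's r between the 2 arrays of a group across probe sets was 0.994 to 0.996, except 0.981 in ERKO oil. Esr1, the receptor gene, read 309 to 365 in the wild type arrays, 118 to 162 in ERKO and 117 to 131 in MOER, so its probe set separated both mutants from wild type. Under oil ERKO read 117.8 to 125.7 and MOER 126.4 to 127.7, and under PPT ERKO read 145 to 162 and MOER 117 to 131. ERKO was thus lower than MOER under oil, by a narrow gap, and higher under PPT. The probe set did not separate the mutants from each other in a constant direction. Groups differed in RNA of other tissues. The summed intensity of 11 pancreatic acinar genes was 36868 to 47065 in MOER oil and 458 to 715 in every other group, and all 11 were called higher in MOER oil than in wild type oil. The summed intensity of 10 skeletal muscle genes was 16273 to 17269 in ERKO PPT and 556 to 759 elsewhere, and all 10 rose with PPT in ERKO. The summed intensity of 10 stratified epithelium genes was 3897 to 4235 in wild type PPT, 3386 to 3522 in ERKO PPT and 523 to 714 elsewhere. No gene of these 3 lists was listed at 0, both arrays of each group carried the higher sum, and the part of this RNA in the results was not tested. The 16 secreted hepatocyte proteins, such as albumin, had a median log2 response to PPT of -0.38 in wild type (1 rose, 10 fell), -0.03 in ERKO (0 rose, 3 fell; 1 higher at an unadjusted p under 0.05) and 0 in MOER (1 rose, 0 fell; 5 higher and 0 lower at an unadjusted p under 0.05). Of all probe sets tested, 31% were called in wild type, 17.9% in ERKO and 4.66% in MOER.

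**Figure D1:**
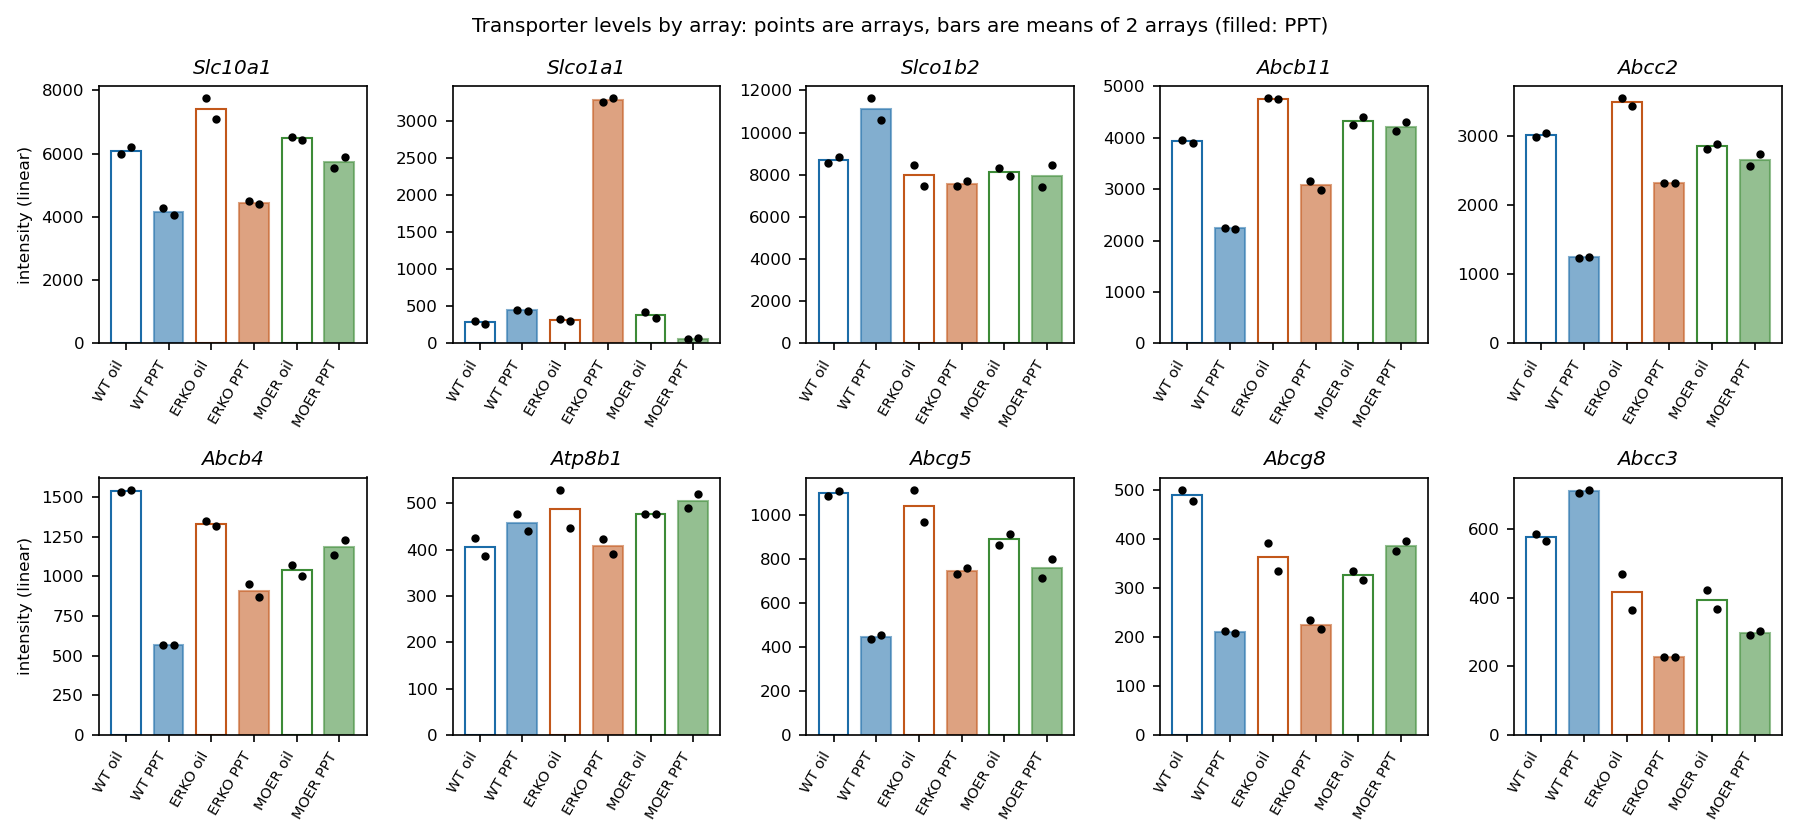
Intensity of the 10 transporter genes on each array, on a linear axis from 0, with a panel for each gene. Points are arrays and bars are the mean of 2 arrays, open for oil and filled for PPT; Slco1a1 stood at 3247 and 3301 in ERKO PPT and at 53.5 and 78.2 in MOER PPT.

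The first question was how PPT changed the transporters in mice with the whole receptor. In wild type livers Abcb11, Abcc2, Abcb4, Abcg5 and Abcg8, the exporters to bile, all fell, Slc10a1 fell, and the organic anion carriers Slco1a1 and Slco1b2 rose. Of the 10 genes, 2 rose and 6 fell (limma, Benjamini-Hochberg adjusted p under 0.05 over all 19119 probe sets). Over all probe sets 14.8% rose and 16.2% fell, 31% in all. The median log2 response of the 10 genes was -0.68, beside 0.02 over all probe sets tested. In the same comparison 6 of 10 endothelial genes fell and 1 rose (median -0.44), with a sum of 10020 to 10338 under oil and 6130 to 6139 under PPT, and the stratified epithelium sum went from between 523 and 556 to between 3897 and 4235. The part of either in the transporter values was not tested.

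Among the uptake carriers, Slc10a1 read 5972 and 6193 under oil and 4268 and 4058 under PPT. Both PPT arrays lay under both oil arrays, and the log2 response was -0.55 ± 0.087 (standard error of the fit, adjusted p = 0.000676). Slco1b2, which encodes a liver-specific organic anion carrier, read 8538 and 8825 under oil and 11632 and 10603 under PPT, a response of 0.35 ± 0.103 (adjusted p = 0.0232). Slco1a1 read 302 and 269 under oil and 456 and 434 under PPT, a response of 0.61 ± 0.148 (adjusted p = 0.00884). The 3 uptake genes thus split, with 1 lower and 2 higher under PPT. The Slco1b2 call was lost when either oil array or PPT replicate 1 was left out (adjusted p = 0.126, 0.0785 and 0.167), and the Slco1a1 call when oil replicate 2 or PPT replicate 1 was left out (0.0698 and 0.0592). Slco1a1 belongs to a family of close paralogues, so its probe set may also read related transcripts.

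Of the canalicular genes, Abcb11 read 3962 and 3898 under oil and 2249.6 and 2225 under PPT, a log2 response of -0.81 ± 0.081 (adjusted p = 2.46e-05). Abcc2 read 2983 and 3049.7 under oil and 1242 and 1246 under PPT, -1.27 ± 0.081 (adjusted p = 8.86e-07). Abcb4, the phosphatidylcholine floppase, read 1531 and 1545 under oil and 566 and 567 under PPT, -1.42 ± 0.089 (adjusted p = 7.85e-07), the largest fall of the 10. The flippase gene Atp8b1 was the exception at this membrane: it read 426 and 387 under oil and 476 and 439.7 under PPT, 0.17 with a 95% interval of -0.07 to 0.40 (adjusted p = 0.27).

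Both sterol exporter subunits fell by similar amounts. Abcg5 read 1089.7 and 1112 under oil and 437 and 456 under PPT, a log2 response of -1.27 ± 0.098 (adjusted p = 3.4e-06). Abcg8 read 501 and 478 under oil and 213 and 209 under PPT, -1.16 ± 0.098 (adjusted p = 6.61e-06). The basolateral pump gene Abcc3 read 585 and 567 under oil and 707 and 715 under PPT, 0.30 with an interval of 0.04 to 0.56, and did not pass (adjusted p = 0.0827). It passed after median centring (adjusted p = 0.0127), quantile normalisation (0.0123), a fit on the wild type arrays alone (0.0168) and without either ERKO oil array (0.015). The intensities of the 2 wild type groups did not overlap for any of the 10 genes, as for 72.2% of all probe sets tested. When arrays were centred on the secreted hepatocyte genes, which moved all probe sets by 0.54 on the log2 scale in this comparison, Abcc2, Abcb4, Abcg5 and Abcg8 kept their falls. On that scale Slc10a1 gave 0 (adjusted p = 0.99) and Abcb11 -0.26 (adjusted p = 0.0659), and neither passed the test, while Atp8b1 (0.71) and Abcc3 (0.84) passed as higher.

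**Figure D2:**
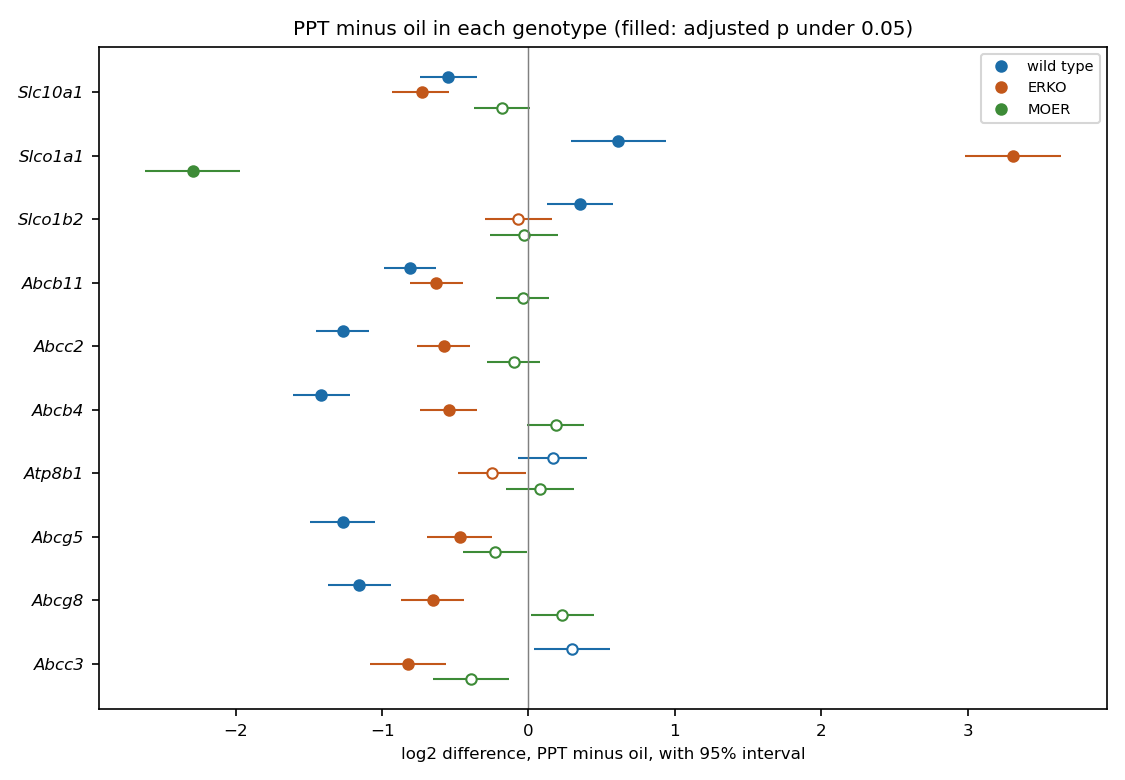
Log2 difference, PPT minus oil, of the 10 transporter genes in wild type, ERKO and MOER livers, with 95% intervals of the limma fit; filled points passed an adjusted p of 0.05. Abcb11, Abcc2, Abcb4, Abcg5 and Abcg8 lie left of 0 in wild type and ERKO, with open points in MOER, and Slco1a1 lies at 0.61 in wild type, 3.31 in ERKO and -2.29 in MOER.

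The second question was what PPT changed with the receptor at the membrane only. In MOER livers 1 of the 10 transporters passed the test: Slco1a1, which fell. None rose (0 by limma; 1 higher and 3 lower at an unadjusted p under 0.05, and 1 called in a Cyber-T-style test), against 2.35% of all probe sets that rose and 2.31% that fell, 4.66% in all. Slco1a1 read 423 and 343 under oil and 53.5 and 78.2 under PPT, a log2 response of -2.29 ± 0.148 (adjusted p = 6.12e-06). The first PPT array lay under its 40th percentile of intensity, so the fall is given as at least 5.54-fold on the linear scale, with that array raised to its percentile.

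No canalicular or sterol gene passed the test in MOER. Abcb11 read 4249 and 4393 under oil and 4119 and 4303 under PPT, a difference of -0.04 with a 95% interval of -0.22 to 0.14. Abcc2 read 2813 and 2888 under oil and 2568 and 2742 under PPT, -0.10 with an interval of -0.28 to 0.08. On this scale, falls of the size seen in wild type lie outside both intervals. Centred on secreted hepatocyte genes, Abcb11 gave -0.26 in wild type and -0.19 in MOER, a difference of -0.07 (limma, adjusted p = 0.706). Abcc2 gave -0.72 and -0.26 there, a difference of -0.46 (adjusted p = 0.0235). Abcb4 read 1072 and 1003 under oil and 1137 and 1231 under PPT, 0.19 (adjusted p = 0.366), and Atp8b1 478 and 476 against 490.3 and 521, 0.08 (adjusted p = 0.827). Abcg5 read 866 and 917 under oil and 716 and 799.9 under PPT, -0.23 (adjusted p = 0.294). Abcg8 read 336 and 317 under oil and 377 and 395 under PPT, 0.23 (adjusted p = 0.289). The values of the 2 subunit genes had opposite signs in MOER, and neither passed the test.

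Of the remaining members, Slc10a1 read 6529 and 6428 under oil and 5547 and 5889.7 under PPT, -0.18 with an interval of -0.37 to 0.01 (adjusted p = 0.378). Slco1b2 read 8299.9 and 7921 against 7405 and 8485, -0.03 (adjusted p = 0.943), with overlapping arrays. Abcc3 read 423 and 366 under oil and 291 and 304 under PPT, -0.39 (adjusted p = 0.113), and passed after median centring (adjusted p = 0.0259), quantile normalisation (0.0132), centring on secreted hepatocyte genes (0.00845) and without either ERKO oil array (0.0169). Abcg5 passed when centred on secreted hepatocyte genes (-0.39, adjusted p = 0.0394). The arrays of the 2 MOER groups did not overlap for 8 of the 10 genes, beside 48.1% of all probe sets. The 11 acinar genes moved with this comparison, 10 of them falling with a median of -3.64, and their part in the transporter values was not tested. Secreted hepatocyte genes, measured in the same arrays, were called for 0 of 16 in MOER oil minus wild type oil (0 at an unadjusted p under 0.05 and 0 in the Cyber-T-style test), with a median of 0.03. In that comparison 5.66% of all probe sets were called.

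The third comparison gave PPT to mice that per the labels have no oestrogen receptor alpha. In ERKO livers 7 of the 10 transporters fell and 1, Slco1a1, rose, against 8.46% of all probe sets that fell and 9.48% that rose, 17.9% in all. Slco1a1 read 335 and 298 under oil and 3247 and 3301 under PPT, a log2 response of 3.31 ± 0.148 (adjusted p = 1.28e-07). It was the largest response of any member in any genotype, and the ERKO PPT arrays lay above the other 10 arrays, whose highest reading was 456.

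Slc10a1 read 7747 and 7093 under oil and 4511 and 4392 under PPT, -0.73 ± 0.087 (adjusted p = 0.000352). Abcb11 read 4764 and 4753 under oil and 3161 and 2988 under PPT, -0.63 (adjusted p = 0.000634), and Abcc2 3546 and 3429.6 against 2328 and 2324, -0.58 (adjusted p = 0.00106). Abcb4 read 1345 and 1314 under oil and 952 and 866 under PPT, -0.54 (adjusted p = 0.00259). In each of these genes the PPT arrays lay under the oil arrays. Abcg5 read 1116 and 970.2 under oil and 732 and 761 under PPT, -0.47 (adjusted p = 0.0092), and Abcg8 391 and 334 against 234 and 216, -0.65 (adjusted p = 0.00156). Abcc3, which did not pass in wild type, read 468 and 365 under oil and 227 and 226 under PPT and fell by 0.82 (adjusted p = 0.00121). The 2 members that did not pass were Slco1b2, at 8485 and 7477 against 7457 and 7701 (-0.07, interval -0.30 to 0.16), and Atp8b1, at 529 and 446 against 423 and 391 (-0.25, adjusted p = 0.13). Slco1b2 passed with quantile normalisation (-0.25, adjusted p = 0.0242), and Atp8b1 with median centring (-0.27, adjusted p = 0.0273), quantile normalisation (-0.26, adjusted p = 0.0292) and without ERKO oil replicate 2 (-0.37, adjusted p = 0.0261).

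The median response of the 10 genes in ERKO was -0.56, beside 0.03 over all probe sets. The 2 ERKO groups did not overlap for 9 of the 10 genes, beside 49.9% of all probe sets. The 10 skeletal muscle genes rose in the same comparison with a median of 3.99. Of 12 macrophage genes 0 rose and 6 fell (median -0.33), and of 10 stellate genes 4 rose and 0 fell (median 0.11). Of 10 endothelial genes 2 rose and 1 fell. Over all probe sets 9.48% rose and 8.46% fell. The part of any of these in the transporter values was not tested. Centred on secreted hepatocyte genes, all 8 calls remained, with Slco1a1 at 3.38 and Abcb11 at -0.56. Fitted on the 4 ERKO arrays alone, the falls of Abcb11, Abcc2, Abcb4, Abcg5 and Abcg8 no longer passed (adjusted p = 0.066, 0.0827, 0.109, 0.161 and 0.0709), and that of Abcg5 was also lost without either PPT array (0.0611 and 0.0512).

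The responses were then compared between genotypes, with a test of each difference. Wild type and MOER responses differed for 7 of the 10 genes, Abcb11, Abcc2, Abcb4, Abcg5, Abcg8, Slco1a1 and Abcc3, with 2 higher and 5 lower in wild type, against 21.6% of all probe sets (10.5% higher, 11.1% lower). The falls of Abcb11, Abcc2, Abcb4, Abcg5 and Abcg8 were larger in wild type, by 0.77 for Abcb11 to 1.60 for Abcb4 on the log2 scale. Slc10a1 gave -0.37 (adjusted p = 0.0589), and passed with median centring (0.0226), quantile normalisation (0.01) and trended variance (0.0114). Slco1b2 (0.39) passed with the same 3 settings, and Atp8b1 (0.09) with none of them. Centred on secreted hepatocyte genes, Slco1b2 (1.09, adjusted p = 0.000159) and Atp8b1 (0.79, adjusted p = 0.00112) both passed. Between wild type and ERKO 6 of 10 responses differed, 1 higher and 5 lower in wild type, against 22.3% of all probe sets (10.3% higher, 12% lower). Abcc2, Abcb4, Abcg5 and Abcg8 fell further in wild type, whereas Slc10a1 (0.19, interval -0.08 to 0.46) and Abcb11 (-0.18, interval -0.43 to 0.07) were not shown to differ. Slc10a1 passed with quantile normalisation (0.36, adjusted p = 0.0197) and with secreted hepatocyte centring (0.67, adjusted p = 0.00427). Slco1b2 (0.43, adjusted p = 0.0608) and Atp8b1 (0.42, adjusted p = 0.0716) passed with median centring (0.48 and 0.47), quantile normalisation (0.59 and 0.42), secreted hepatocyte centring (0.90 and 0.89), trended variance, the 60th percentile filter and without ERKO oil replicate 2. Between MOER and ERKO 6 of 10 differed, 5 higher and 1 lower in MOER, against 11.5% of all probe sets (5.88% higher, 5.59% lower), with Slc10a1, Abcb11, Abcc2, Abcb4 and Abcg8 lower in the ERKO response. Slco1a1 differed in all 3 comparisons, by -5.60 ± 0.209 between the MOER and ERKO responses (adjusted p = 4.79e-08). Abcc3 differed between wild type and each mutant, at 0.68 (adjusted p = 0.0134) against MOER and 1.12 (adjusted p = 0.000768) against ERKO.

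Some of these differences rested on single arrays. Abcc3 in wild type minus MOER was lost without wild type oil replicate 2 (adjusted p = 0.0518), MOER oil replicate 1 (0.0609) or MOER PPT replicate 1 (0.0513). Abcg8 in wild type minus ERKO was lost without any 1 of the wild type arrays or ERKO PPT replicate 1 (0.0587 to 0.0909). Slc10a1 and Abcc2 in MOER minus ERKO were lost without either ERKO PPT array, either MOER oil array or MOER PPT replicate 2 (0.05 to 0.0906). Centring on secreted hepatocyte genes, which moved all probe sets by 0.70 and 0.48 in the comparisons of wild type with MOER and ERKO, left Abcb11 short of the test in the first (adjusted p = 0.706) and Abcc2, Abcb4, Abcg5 and Abcg8 in the second (adjusted p = 0.0858 to 0.88). It turned Slc10a1 from -0.37 to 0.34 (adjusted p = 0.0525) in the first and Abcb11 from -0.18 to 0.30 (adjusted p = 0.174) in the second. In the comparison of MOER with ERKO the same centring left 2 calls, Slco1a1 and Abcg8.

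Under oil 0 to 3 of the 10 genes passed between any pair of genotypes. ERKO differed from wild type for 1 of 10, Abcg8 at -0.42 (adjusted p = 0.0378), against 5.01% of all probe sets (2.24% higher, 2.77% lower). That call was lost in 11 of 12 fits that left out 1 array (adjusted p = 0.0604 to 0.226) and remained without ERKO oil replicate 1. With median centring or quantile normalisation 6 genes passed, 4 higher and 2 lower in ERKO: Slc10a1 (0.36 and 0.39), Abcb11 (0.35 and 0.34), Abcc2 (0.29 and 0.27) and Atp8b1 (0.33 and 0.32) were higher, and Abcc3 (-0.38 in both) and Abcg8 lower. Under secreted hepatocyte centring 0 passed by limma. MOER was lower than wild type in 3 of 10, Abcb4 (-0.56, adjusted p = 0.00553), Abcg8 (-0.56, adjusted p = 0.00923) and Abcc3 (-0.53, adjusted p = 0.0267), against 5.66% of all probe sets (2.13% higher, 3.53% lower). All 3 were lost without either wild type oil array or without MOER oil replicate 2 (adjusted p = 0.0553 to 0.229), and Abcc3 also without MOER oil replicate 1 (0.0568) or either wild type PPT array (0.0506). These values share the MOER oil arrays with the acinar genes, all 11 of which were higher there with a median of 4.01, and the part of that RNA was not tested. MOER and ERKO differed for 0 of 10 under oil by limma (0 higher and 4 lower at an unadjusted p under 0.05, 0 in the Cyber-T-style test), against 2.05% of all probe sets (0.894% higher, 1.16% lower).

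Under PPT 6 to 9 of the 10 genes passed. ERKO was higher than wild type in 5 of 10 genes and lower in 2, against 14.3% and 17.7% of all probe sets, 32.1% in all, and MOER was higher in 6 and lower in 3, against 15.4% and 20.1%, 35.5% in all. Abcb11 exceeded wild type by 0.46 in ERKO and 0.91 in MOER, Abcc2 by 0.89 and 1.08, Abcb4 by 0.66 and 1.04 and Abcg5 by 0.72 and 0.74. Abcc3 was lower by -1.58 in ERKO and -1.21 in MOER, and Slco1b2 by -0.55 and -0.49. Slco1a1 was 2.84 above wild type in ERKO and -2.51 from it in MOER. MOER was higher than ERKO in 5 genes and lower in 1, against 10% and 12.1% of all probe sets, 22.1% in all, with Slco1a1 lower in MOER by -5.34 ± 0.148 and Abcg8 higher by 0.74 ± 0.098. In that comparison Slc10a1 (0.36) was lost without either ERKO PPT array or MOER PPT replicate 2 (adjusted p = 0.0641 to 0.0919), Abcb4 (0.38) without ERKO PPT replicate 2 or MOER PPT replicate 2 (0.111 and 0.086), and Abcc3 (0.37) in 10 of 12 fits that left out 1 array. Centring on secreted hepatocyte genes, which moved all probe sets by -0.40 in ERKO minus wild type and -0.68 in MOER minus wild type, turned Slc10a1 in MOER from 0.46 to -0.22 (adjusted p = 0.0599) and ended the calls of Abcb11 in both. It also ended the calls of Abcb4 in ERKO and of Abcg5 and Abcg8 in MOER, and turned Slc10a1 (0.10 to -0.30, adjusted p = 0.0249) and Abcg8 (0.09 to -0.31, adjusted p = 0.022) in ERKO and Atp8b1 (0.14 to -0.54, adjusted p = 0.000727) in MOER, all 3 past the test as lower. Atp8b1 in ERKO passed as lower too (-0.56, adjusted p = 0.000977). In MOER minus ERKO this centring ended the calls of Slc10a1, Abcb11, Abcb4 and Abcc3.

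**Figure D3:**
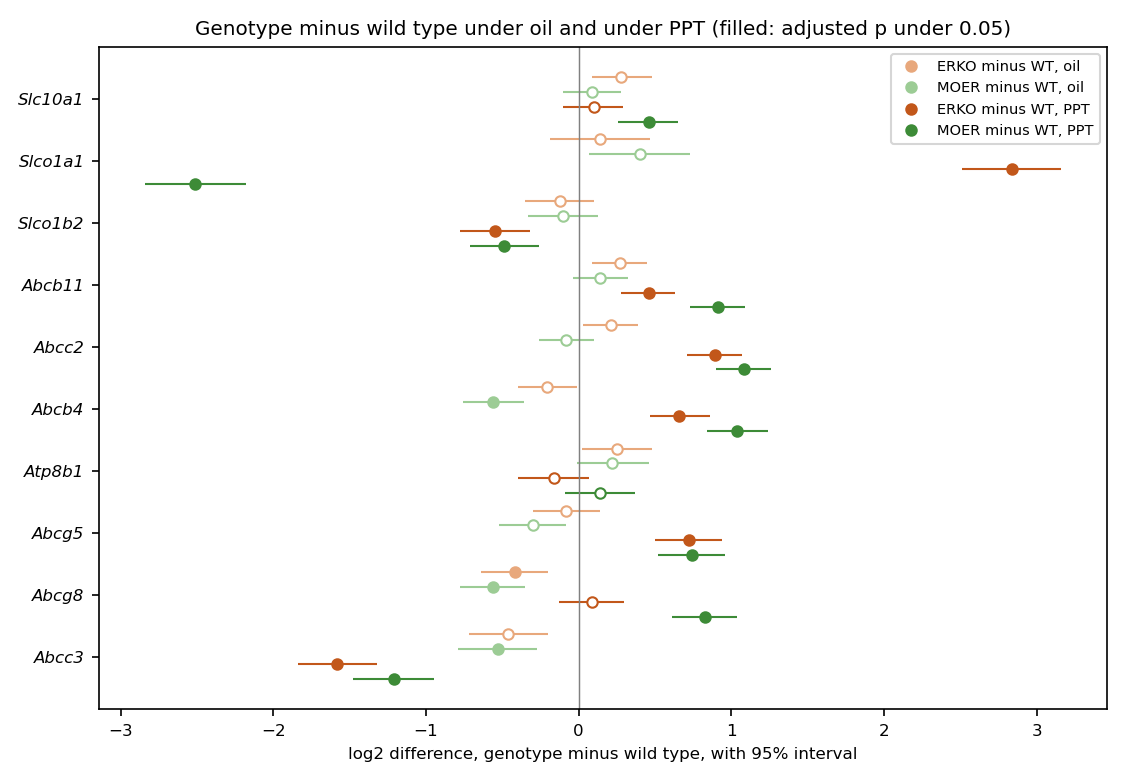
Log2 difference of each mutant from wild type, under oil (pale) and under PPT (dark), with 95% intervals of the limma fit; filled points passed an adjusted p of 0.05. Under PPT, Slco1a1 lies at 2.84 in ERKO and -2.51 in MOER, and Abcb11, Abcc2, Abcb4 and Abcg5 lie right of 0 in both.

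Ordered by group mean, Slc10a1, Abcb11, Abcc2, Abcb4, Abcg5 and Abcg8 were lowest in wild type PPT, while Slco1b2 and Abcc3 were highest there. For Slc10a1 the order from the top was ERKO oil, MOER oil, wild type oil, MOER PPT, ERKO PPT and wild type PPT, with no overlap between the arrays of neighbours. For Abcb11 it was ERKO oil, MOER oil, MOER PPT, wild type oil, ERKO PPT and wild type PPT, and the 2 MOER groups overlapped. The order for Abcc2 was ERKO oil, wild type oil, MOER oil, MOER PPT, ERKO PPT and wild type PPT, and for Abcb4 wild type oil, ERKO oil, MOER PPT, MOER oil, ERKO PPT and wild type PPT, without overlap between neighbours in either. Abcg5 stood highest in wild type oil and ERKO oil, which overlapped, followed by MOER oil, by MOER PPT and ERKO PPT, which overlapped, and by wild type PPT. Abcg8 stood highest in wild type oil, followed by MOER PPT, ERKO oil and MOER oil, of which ERKO oil overlapped each of the other two while these did not overlap each other, then ERKO PPT and wild type PPT. Abcc3 ran from wild type PPT and wild type oil through the overlapping ERKO oil and MOER oil to MOER PPT and ERKO PPT. For Atp8b1 MOER PPT, ERKO oil, MOER oil and wild type PPT overlapped from neighbour to neighbour, as did ERKO PPT and wild type oil below them. For Slco1b2 the MOER oil, ERKO oil, MOER PPT and ERKO PPT arrays overlapped from neighbour to neighbour below the 2 wild type groups. For Slco1a1 the order was ERKO PPT, wild type PPT, MOER oil, ERKO oil, wild type oil and MOER PPT, and ERKO oil overlapped wild type oil. The ratio of the highest to the lowest group mean was at least 47.3 for Slco1a1, with its 1 dim MOER PPT array raised to the 40th percentile. It was 3.14 for Abcc3, 2.80 for Abcc2 and 2.71 for Abcb4, and it was smallest for Slco1b2 (1.47) and Atp8b1 (1.24).

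Likeness of pattern was measured as the root mean square distance between log2 levels over the 12 arrays after each gene was centred on its own mean, among 13986 other genes. Levels were not scaled, so the distance reflects the size of the changes as well as their order. Genes that changed little can therefore lie close together whatever their order of groups. The arrays share their groups, so a small distance describes like group levels and nothing more. Nearest to Slc10a1 were Aldh6a1 (0.05), Fggy (0.0559) and Mccc1 (0.0642), and nearest to Abcb11 were Ugt3a2 (0.071), Cpq (0.0915) and Mccc1 (0.102). Nearest to Abcg5 were Rnf43 (0.0892), Abcd3 (0.0912) and Hsd17b13 (0.105), and nearest to Abcc3 were Phlda1 (0.124), Lratd2 (0.179) and Snord14e (0.18). For Slco1a1, added after its values were seen and the widest in range of the members, the nearest genes were farther away: Ankrd23 (0.807), Mylpf (0.815) and Eno3 (0.817). Mylpf is 1 of the 10 skeletal muscle genes that rose in ERKO PPT, where Slco1a1 also rose, and the part of that RNA in the Slco1a1 value was not tested. Among the members, Abcg5 lay at 0.137 from Abcc2, 0.152 from Abcb4 and 0.264 from its partner Abcg8, and Abcb11 at 0.143 from Slc10a1. The 2 genes of the sterol heterodimer, whose promoter windows overlap, were thus farther from each other than Abcg5 was from Abcc2 or Abcb4.

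Other genes of the pathway were described from lists that were also chosen with earlier results of these data known. Counts set beside the share of all probe sets are thus descriptive, for these lists and for the members. Over all probe sets 14.8% rose and 16.2% fell in wild type, 9.48% and 8.46% in ERKO, and 2.35% and 2.31% in MOER. Of 23 other hepatobiliary transporters and partners tested, 5 rose and 10 fell in wild type, 2 and 7 in ERKO, and 2 and 3 in MOER, with medians of -0.02, -0.29 and -0.01. Slco1a4, a paralogue of Slco1a1, fell in all 3 genotypes, by 3.19 in wild type, 1.21 in ERKO and 0.71 in MOER, while Slco1a1 rose in wild type and ERKO and fell in MOER. Slc22a7, an organic anion carrier, fell at least 4.54-fold in wild type, from a mean of 254 to 18.1, and gave -0.35 in ERKO and -0.10 in MOER without passing. Aqp8, a canalicular water channel, rose by 1.45 in wild type and fell by 0.79 in MOER. Aqp9, a glycerol and water channel of the sinusoidal membrane, gave -0.76 in wild type and 0.37 in MOER, both past the test.

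In the canalicular scaffold and trafficking list of 11 genes, 1 rose and 3 fell in wild type, 0 and 5 in ERKO (0 higher at an unadjusted p under 0.05) and 0 and 0 in MOER by limma (1 and 0 at an unadjusted p under 0.05, 0 in the Cyber-T-style test). In wild type and MOER these counts were near the shares of all probe sets called, 31% and 4.66%. In ERKO 17.9% of all probe sets were called. Slc9a3r1, the PDZ scaffold EBP50, fell by 0.49 in wild type, Vipas39, a partner in apical sorting, by 0.52, and Rdx, which encodes the canalicular linker radixin, rose by 0.26. Rdx went the other way in ERKO, where it fell by 0.40. In MOER the smallest p-values were those of Ceacam1 (0.27, adjusted p = 0.202), Vil1 (0.23, adjusted p = 0.355, not above the 40th percentile under oil) and Rdx (0.17, adjusted p = 0.367).

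Most enzymes of bile acid synthesis also fell in wild type. Of 12 enzymes, 3 rose and 8 fell in wild type, 1 and 7 in ERKO and 1 and 3 in MOER. Of all probe sets, 31% were called in wild type, 17.9% in ERKO and 4.66% in MOER. Cyp7a1, the rate-limiting enzyme, fell at least 46.3-fold in wild type and by a log2 difference of 1.10 in ERKO and 1.20 in MOER. Cyp8b1, which sets the share of cholic acid, fell at least 10.6-fold in wild type and by 0.98 in MOER, and Cyp7b1, of the oxysterol route, rose by 3.19 in wild type. Cyp39a1, an oxysterol hydroxylase, rose by 0.89 in MOER and fell by 1.17 in wild type. MOER livers thus had lower Cyp7a1 and Cyp8b1 under PPT while Abcb11, Abcc2, Abcb4, Abcg5 and Abcg8 did not pass the main test. Of these 5 exporters, Abcg5 gave -0.23 (limma, adjusted p = 0.294) and passed as lower with secreted hepatocyte centring (-0.39, adjusted p = 0.0394).

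Among 12 receptors and liver factors, 3 rose and 6 fell in wild type, 0 and 7 in ERKO (0 higher at an unadjusted p under 0.05, 0 in the Cyber-T-style test) and 0 and 1 in MOER (1 higher at an unadjusted p under 0.05). The shares of all probe sets called were 31% in wild type, 17.9% in ERKO and 4.66% in MOER. Nr1h4, the gene of FXR, fell by 0.96 in wild type and gave -0.19 in ERKO and -0.07 in MOER without passing. Nr0b2, the repressor SHP and a known target of FXR, rose by 1.12 in wild type and fell by 1.45 in MOER. Nr1i3, the constitutive androstane receptor, fell by 0.98 in wild type and 0.99 in ERKO, and gave 0.08 in MOER. Fgfr4, the liver receptor for the ileal hormone FGF15, fell by 1.23 in wild type, while Ppara (0.33, adjusted p = 0.0812) and Rxra (0.26, adjusted p = 0.37) were next after Nr0b2 in MOER. The 6 bile duct markers matched, which could mark another source of Abcc3 and other carriers, summed to 349 to 414 in every array, with 2 to 5 of them under the 40th percentile in a group. In MOER the sums were 358 to 371 under oil and 400 to 414 under PPT. Only 3 of the markers were bright enough to test, and 1 of these rose with PPT in MOER. The part of bile duct RNA in the transporter values was not tested.

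**Figure D4:**
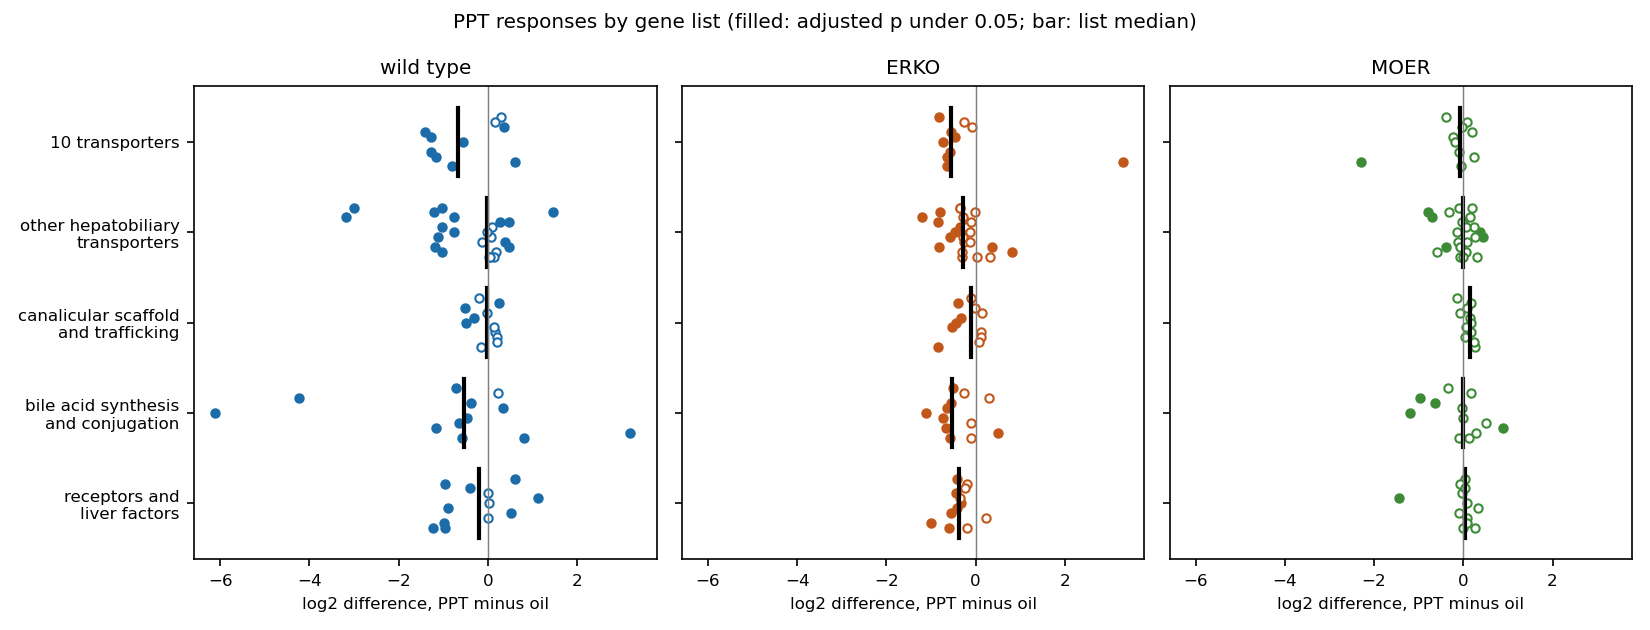
Log2 difference, PPT minus oil, of each gene tested in the 10 transporters and 4 pathway lists, in wild type, ERKO and MOER livers; filled points passed an adjusted p of 0.05 and black bars are list medians. The transporter median lies at -0.68 in wild type, -0.56 in ERKO and -0.07 in MOER.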

How the data were processed

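Per the labels, each of the 12 Affymetrix Mouse Gene 1.0 ST arrays held pooled liver RNA of 3 mice. The labels do not state whether each array's mice were separate. The deposited table gives 1 linear intensity per probe set and array (28815 probe sets); the labels do not say how the authors summarised or normalised probes. Array medians were alike, so the values were not normalised again. Intensities were transformed as log2(intensity + 16), so fold changes of dim genes are understated. The 19119 probe sets that passed a filter on dim signal (over the 40th percentile of at least 2 arrays) were tested. One limma model with a mean for each of the 6 groups was fitted to the 12 arrays (limma 3.58.1 in R 4.3.3, lmFit and eBayes, 6 residual degrees of freedom, 10.47 after moderation), with 12 two-sided contrasts adjusted by Benjamini-Hochberg over all probe sets. Where a gene had several probe sets, the brightest on average stood for it. The fit was tested on simulated data, where it recovered 82% of genes changed by 1 and 100% of those changed by 2 on the log2 scale in the wild type comparison (19119 probe sets). Of its calls there, 6.67% were false, somewhat over the adjusted p threshold of 0.05. The simulation used independent noise and changed 100 probe sets by each size, far fewer than the 31% called in the wild type data. A group counted as dim where both arrays lay under their 40th percentile, and folds into it are lower bounds with dim arrays set to that percentile. The Cyber-T-style test follows the labels' threshold of 99.99% confidence and at least 2-fold. Alternatives were pseudocounts of 1 and 32, no filter or a 60th percentile filter, 3 scalings, a trended variance, the replicate number as a block, a fit on only the groups compared, the mean of probe sets, the Cyber-T-style test and leaving out each array.

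Named were all 10 members, from each pathway list the 3 genes of smallest p in the wild type and in the MOER response, and the 3 nearest genes to Slc10a1, Abcb11, Abcg5 and Abcc3; Rdx in ERKO and list genes in the other genotypes are given beside these. Members and lists were chosen with earlier results of these data known. Of the 165 listed genes, 10 had no probe set with that 1 symbol and are not analysed here. Of the marker lists, macrophage genes numbered 4 higher and 1 lower of 12 in the wild type response, endothelial 1 and 6 of 10, stellate 0 and 2 of 10 and stratified epithelium 2 and 0 of 6. Beside these, 14.8% of all probe sets were called higher and 16.2% lower. Promoter windows are from RefSeq, GRCm38.p6. The arrays' number limits the precision.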

Additional observations from a re-analysis of the deposited data

Results flagged for a closer look

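The PPT response of 19 gene and genotype pairs differed between genotypes by a test of the difference itself (limma, adjusted p under 0.05). Wild type minus MOER gave log2 values of 2.91 for Slco1a1, -0.77 for Abcb11, -1.16 for Abcc2, -1.60 for Abcb4, -1.04 for Abcg5, -1.39 for Abcg8 and 0.68 for Abcc3. Wild type minus ERKO gave -2.70 for Slco1a1, -0.69 for Abcc2, -0.87 for Abcb4, -0.80 for Abcg5, -0.51 for Abcg8 and 1.12 for Abcc3. MOER minus ERKO gave 0.55 for Slc10a1, -5.60 for Slco1a1, 0.59 for Abcb11, 0.48 for Abcc2, 0.73 for Abcb4 and 0.88 for Abcg8. The Slco1a1 differences passed under every alternative tried, whereas the Abcg8 difference between wild type and ERKO and the Slc10a1 and Abcc2 differences between MOER and ERKO were each lost in 5 of 12 fits that left out 1 array. Groups of 2 arrays are too small for a test of outliers.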

How the results depend on the processing

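Of 62 called member values in 12 comparisons, 61 kept their call with a pseudocount of 1, 58 without the filter, 52 with only the groups compared, 40 when centred on secreted hepatocyte genes and 21 at the Cyber-T-style threshold. Pseudocount 32, the 60th percentile filter, median centring, quantile normalisation, trended variance, the mean of probe sets and the replicate block kept all 62. Secreted hepatocyte centring turned Slc10a1 (-0.30) and Abcg8 (-0.31) in ERKO minus wild type and Slc10a1 (-0.22) and Atp8b1 (-0.54) in MOER minus wild type, all under PPT; it moves every gene of an array by the same amount. Deviations of same-numbered arrays had a median r of -0.0237 over 15 pairs of groups (-0.147 to 0.377), with 5 pairs above 0.1. Some groups may thus share a deviation by replicate number. The main fit did not take the numbers as pairs, and the replicate block gave 2 calls instead of 1 in ERKO minus wild type under oil.

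Counts of called members moved over 1.5 times as follows, and the cause was not tested. The MOER response had 2 calls with median centring, 2 with quantile normalisation and 3 with secreted hepatocyte centring, instead of 1. The ERKO response had 3 with only the groups compared, instead of 8, and MOER minus ERKO responses had 3 there and 2 with secreted hepatocyte centring, instead of 6. ERKO minus wild type under oil had 2 with pseudocount 32, 0 without the filter, 4 with the 60th percentile filter, 6 with median centring, 6 with quantile normalisation, 0 with secreted hepatocyte centring, 4 with trended variance, 0 with only the groups compared and 2 with the mean of probe sets. MOER minus ERKO under oil had 1 with the 60th percentile filter, 2 with median centring, 3 with quantile normalisation and 2 with trended variance, instead of 0. MOER minus ERKO under PPT had 2 with secreted hepatocyte centring, instead of 6. The Cyber-T-style threshold gave 4 in the wild type response, 1 in ERKO, 2 in wild type minus ERKO, 1 in MOER minus ERKO responses, 0 and 0 for ERKO and MOER minus wild type under oil, and 2, 4 and 1 for ERKO minus wild type, MOER minus wild type and MOER minus ERKO under PPT.

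Leaving out 1 array gave 6 to 9 calls in the wild type response, 1 to 2 in MOER, 7 to 9 in ERKO, 6 to 9 in wild type minus MOER, 5 to 8 in wild type minus ERKO and 4 to 8 in MOER minus ERKO. Under oil it gave 0 to 3 in ERKO minus wild type, 0 to 4 in MOER minus wild type and 0 to 0 in MOER minus ERKO, and under PPT 7 to 7, 9 to 9 and 3 to 7. With 1 array left in a group, that array is assumed to vary like the other groups.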
